A study of Mus musculus with 24 samples.

Results

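Transcripts of 56 genes of DNA repair and of mutagenic copying or editing of DNA were measured in melanoma and leukemia cells of the mouse, as 56 of the 22911 gene symbols on the arrays. The genes were chosen by name for their route, with earlier results of these data known. They comprise 6 genes of mismatch repair, 10 of homologous recombination, 5 of end joining, 4 damage signalling kinases and 3 of Fanconi crosslink repair. They further comprise 11 of base excision and single-strand break repair, the direct reversal enzyme Mgmt, 8 of nucleotide excision repair, 2 replicative polymerases, 4 translesion polymerases and 2 cytidine deaminases. All 56 had at least 1 probe, and 29 had several, of which the brightest stood for the gene. Values are log2 signals on a scale where 0 is the level that 75 percent of an array's gene spots do not exceed.

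The study asked what sets dormant tumour cells apart from the cells they came from, in a melanoma and a leukemia model of minimal residual disease in immunocompetent mice. B16-M (3 arrays) is the parental B16-F1 melanoma line, which carries GFP. B16-D (4 arrays) holds dormant cells of it recovered about a year later from animals that had received irradiated, GM-CSF-producing tumour cells as a vaccine. B16-D-733 (4 arrays), B16-D-735 (3) and B16-D-739 (3) are read as the second-generation dormant lines from the brain, and the labels do not say which is DB#1, DB#2 or DB#3. M0-p20 (4 arrays) and J365-p20 (3 arrays) are labelled as leukemia cells and are read as parental DA1-3b and its dormant derivative DA1-3b/D365, from a model with vaccination by IL-12-producing cells; this reading rests on the single leukemia comparison of the study. All lines had been expanded in culture, the melanoma lines in DMEM with 10% serum per the labels, so that RNA came from cultured populations and not from dormant cells in the animal. Titles of B16-D replicates 1 to 3 and B16-D-733 replicates 1 to 3 carry a date and those of all other arrays none, and B16-D-733 replicates 1 and 3 carry the same number and may be 1 sample run again. Beyond this nothing in the labels ties the arrays of a line to separate cultures, and the p-values therefore measure only the spread between these samples, which may be technical.

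Cells keep several repair routes side by side. Mismatch repair removes copying errors behind the replication fork, base excision repair removes small damaged bases, nucleotide excision repair cuts out bulky lesions such as those of ultraviolet light, and homologous recombination and end joining close double-strand breaks. The kinases Atm and Atr sense breaks and stalled forks and act on Chek2 and Chek1, the Fanconi genes open crosslinks, Mgmt takes alkyl groups directly off guanine, translesion polymerases copy across damage at the cost of errors, and Apobec deaminases turn cytosine into uracil. Many of these genes are transcribed most in cells that copy their DNA.

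B16-D replicate 2 stood apart from all other arrays, with 90.3 percent of its spots well above background against 46 to 55.8 percent on the other 23. It was left out, and results that change with it are given beside the others. The labelled cell types matched the summed levels of their markers. All 7 pigment cell markers were detected in every melanoma line, against 4 in M0-p20 and 3 in J365-p20, with Dct, Tyrp1 and Mlana on no leukemia array. All 8 blood cell markers were detected in both leukemia lines, against 3 in every melanoma line, with Ptprc, Laptm5, Vav1 and Lcp2 on no melanoma array used. The summed log2 level of the pigment list was 10.51 to 10.63 in B16-M and 0.57 to 1.36 in M0-p20. That of the blood list was 1.04 to 1.37 in B16-M and 6.44 to 6.94 in M0-p20. In such bulk samples, fewer cells with a transcript and less transcript per cell cannot be told apart.

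Promoters were taken from RefSeq (build GRCm38.p6) as windows of 300 bases, from 250 before to 50 after the start site, and 46 of the 56 genes had at least 1 window, 56 windows in all. E2F factors control genes of DNA replication, and letters of the type they bind (TTCCCGC, the form with TTGGCGC, the one with TTCGCGC and that with TTGCCGC, on either strand) were in 24 of these 56 windows (42.9%) against 9.57% of 32851 windows of all genes. The GC box letters GGGCGG were in 64.3% against 35.7%, and both sets of letters lie in GC-rich sequence, which had a median of 22 CG dinucleotides per window in these genes against 7 in all. A match describes the letters of the window and is not a bound site. Below are the windows of Msh6 at chr17:87974800-87975099 (plus strand) and Chek1 at chr9:36726609-36726908 (minus strand), which differed within the melanoma lines, with the E2F-type letters in capitals, 17 and 44 bases after the start site. Those of Mgmt at chr7:136894336-136894635 (plus strand, 20 CG) and Apobec1 at chr6:122602395-122602694 (minus strand, 9 CG) follow with each CG in capitals, as the genes with the largest differences between the tumour types and between B16-D and B16-M.
Msh6: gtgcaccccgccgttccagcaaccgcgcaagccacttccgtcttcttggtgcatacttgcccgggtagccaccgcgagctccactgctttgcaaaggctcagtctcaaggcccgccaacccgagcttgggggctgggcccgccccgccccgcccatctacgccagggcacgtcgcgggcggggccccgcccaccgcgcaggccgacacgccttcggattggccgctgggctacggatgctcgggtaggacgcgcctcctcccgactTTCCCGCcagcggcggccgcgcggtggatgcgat
Chek1: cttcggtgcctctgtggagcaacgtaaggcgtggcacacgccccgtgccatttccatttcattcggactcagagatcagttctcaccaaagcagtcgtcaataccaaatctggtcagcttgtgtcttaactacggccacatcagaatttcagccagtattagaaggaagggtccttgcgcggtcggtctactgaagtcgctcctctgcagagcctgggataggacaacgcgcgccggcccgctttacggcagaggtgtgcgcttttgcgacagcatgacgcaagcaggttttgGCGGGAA
Mgmt: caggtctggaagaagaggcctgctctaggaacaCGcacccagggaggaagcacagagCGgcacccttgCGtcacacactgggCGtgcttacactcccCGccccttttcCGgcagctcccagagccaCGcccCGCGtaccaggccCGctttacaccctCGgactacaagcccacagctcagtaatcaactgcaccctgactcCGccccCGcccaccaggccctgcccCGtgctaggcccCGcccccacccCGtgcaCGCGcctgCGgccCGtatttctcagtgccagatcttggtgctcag
Apobec1: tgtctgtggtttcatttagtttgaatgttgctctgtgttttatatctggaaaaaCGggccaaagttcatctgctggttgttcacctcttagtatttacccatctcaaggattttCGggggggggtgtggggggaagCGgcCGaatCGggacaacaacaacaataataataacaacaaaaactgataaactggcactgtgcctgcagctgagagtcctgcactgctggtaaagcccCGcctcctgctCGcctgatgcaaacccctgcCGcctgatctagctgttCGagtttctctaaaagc

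Nearly every repair gene was transcribed in every line. A gene counted as detected where its probe was well above background on at least 50 percent of the arrays of a line, and by this measure 56 of 56 were detected in M0-p20 and J365-p20, 55 in B16-D and B16-D-733, and 54 in B16-M, B16-D-735 and B16-D-739. Mgmt was missing from all melanoma lines and Mlh3, a gene of mismatch repair, from B16-M, B16-D-735 and B16-D-739. Mlh3 lay at -5.41, -5.28 and -5.42 in B16-M, none above background, at -5.44 (not above background), -3.96 and -4.67 in B16-D, and between -3.08 and -2.51 on all 7 leukemia arrays. The leukemia arrays were thus all above the melanoma arrays for Mlh3, while B16-D straddled the detection limit.

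**Figure D1:**
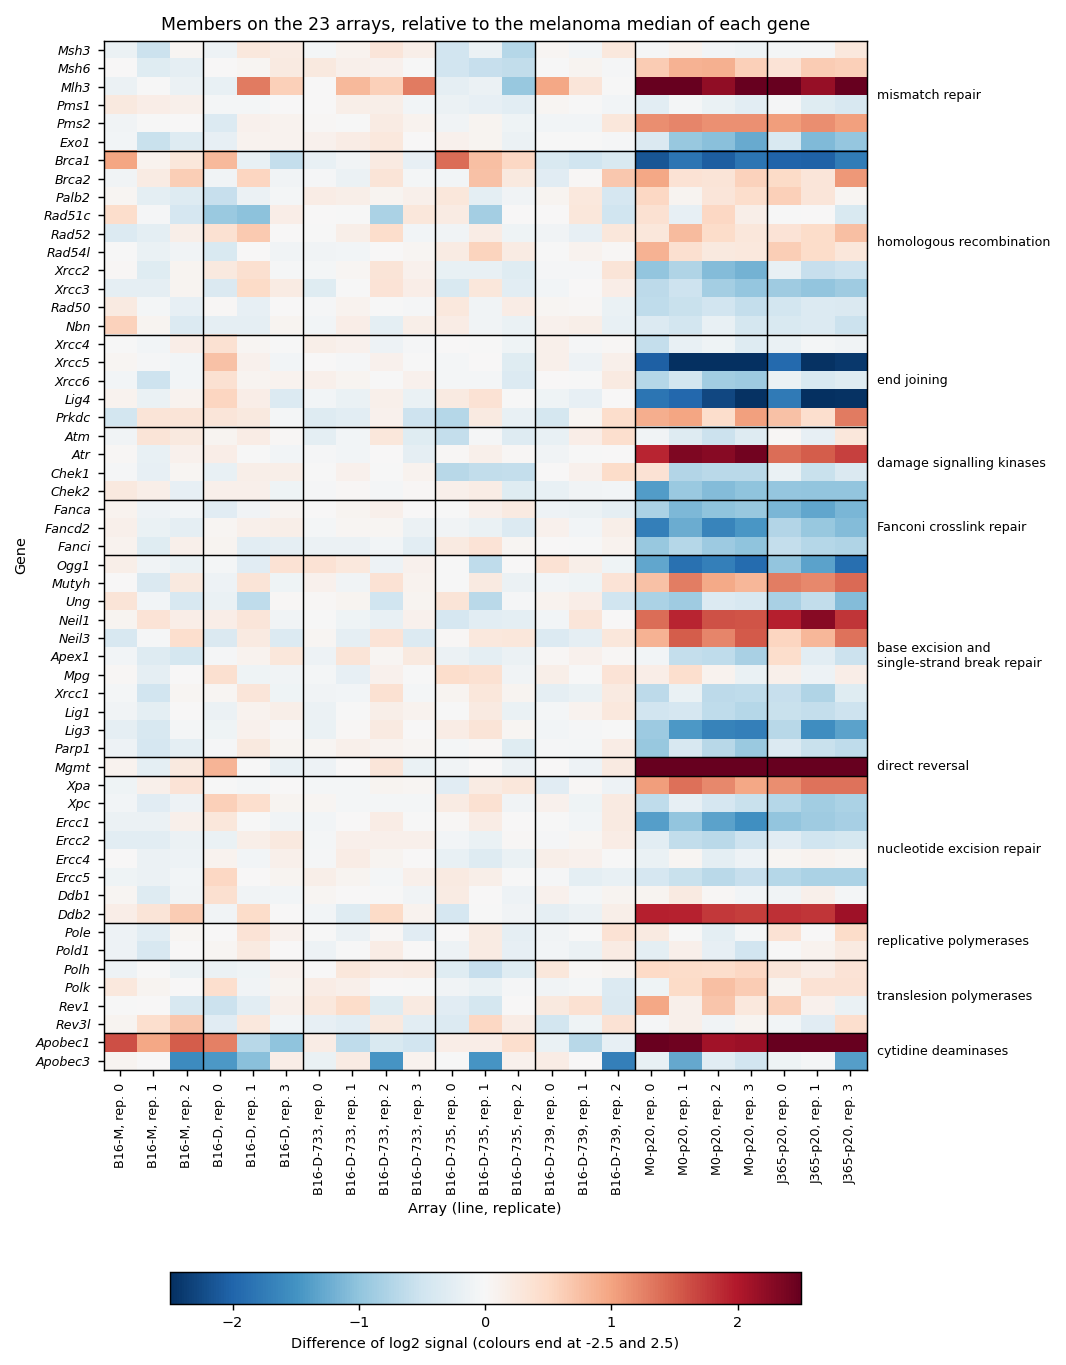
Heat map of the 56 genes (vertical, grouped by repair route) on 23 arrays (horizontal, by line and replicate), each cell showing the log2 signal minus the median of the melanoma arrays for that gene, with colours ending at -2.5 and 2.5. The 16 melanoma arrays are pale for most genes, with exceptions such as Apobec1, Apobec3, Brca1 and Mlh3, and the 7 leukemia arrays differ in blocks such as Xrcc5, Lig4, Atr and Mgmt.

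The first comparison asked whether dormant melanoma cells carried other levels of repair transcripts than the parental line. No repair gene was called between B16-D and B16-M: 0 of 55 tested had an adjusted p under 0.05 (limma), where 3.6 percent of all 24310 genes tested did (2 percent higher and 1.6 percent lower), and 11 of the 55 had an unadjusted p under 0.05, as had 4034 of all. The differences were mostly small, with 33 above 0 and 22 below, a median of 0.10 against -0.04 over all genes, and 51 of the 55 under 0.5 in size. The 95 percent interval excluded a 2-fold difference for 50 genes, and reached it for Mlh3, Brca1, Rad51c, Apobec1 and Apobec3. By limma 0 of 18 replication markers (3 at an unadjusted p under 0.05, summed log2 level 8.90 to 9.03 in B16-D against 8.64 to 8.93) and 0 of 10 p53 target genes (4 at an unadjusted p under 0.05, median 0.42, summed level 6.41 to 7.27 against 6.16 to 6.49) passed. Of the blood cell markers 2 of 3 tested did, Coro1a lower and Il3ra higher, with Ptprc on no array of either line.

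By route, the members with the highest and lowest difference between B16-D and B16-M were as follows, none of them past the threshold. In mismatch repair they were Mlh3 and Pms1 (-0.21 ± 0.09, SE). For Mlh3 no B16-M array and 2 of 3 B16-D arrays were above background and the lines overlapped, so that no size is given. Pms1 had all B16-D arrays below all B16-M arrays. Msh6, which takes part in mispair recognition, had all B16-D arrays above all B16-M arrays (0.26 ± 0.11). In homologous recombination the highest and lowest were Rad52 (0.50 ± 0.20), which anneals single strands, and Rad51c (-0.59 ± 0.39). With the slide as a block Rad52 was at 0.355 and Rad51c at -0.327. The B16-D arrays used lay on slides 1, 1 and 3, and the B16-M arrays on slides 1, 2 and 3. In end joining the highest and lowest were the Ku70 gene Xrcc6 (0.40 ± 0.14) and the kinase gene Prkdc (0.10 ± 0.29). The kinases lay between Chek1 at 0.10 ± 0.13 and Atm at -0.06 ± 0.20, and the Fanconi genes between Fancd2 at 0.20 ± 0.12 and Fanci at -0.10 ± 0.14. In base excision repair Apex1, the abasic site nuclease, was at 0.40 ± 0.14 and the uracil glycosylase Ung at -0.21 ± 0.29, and the arrays of the lines did not overlap for Apex1. Nucleotide excision repair ran from Xpc (0.52 ± 0.15, adjusted p = 0.089) to Ddb2 (-0.25 ± 0.22), both damage sensors. Without B16-D replicate 3 Xpc passed (0.66, adjusted p = 0.0399), and with B16-D replicate 2 put back into the fit it was at 0.35 (adjusted p = 0.454). Ercc2, a helicase gene of the same route, passed without B16-D replicate 0 (0.43, adjusted p = 0.0478). The replicative polymerase genes Pold1 and Pole were both at 0.27, and the translesion polymerases lay between Polh (0.04 ± 0.12) and Rev3l (-0.41 ± 0.27), the catalytic subunit of polymerase zeta.

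**Figure D2:**
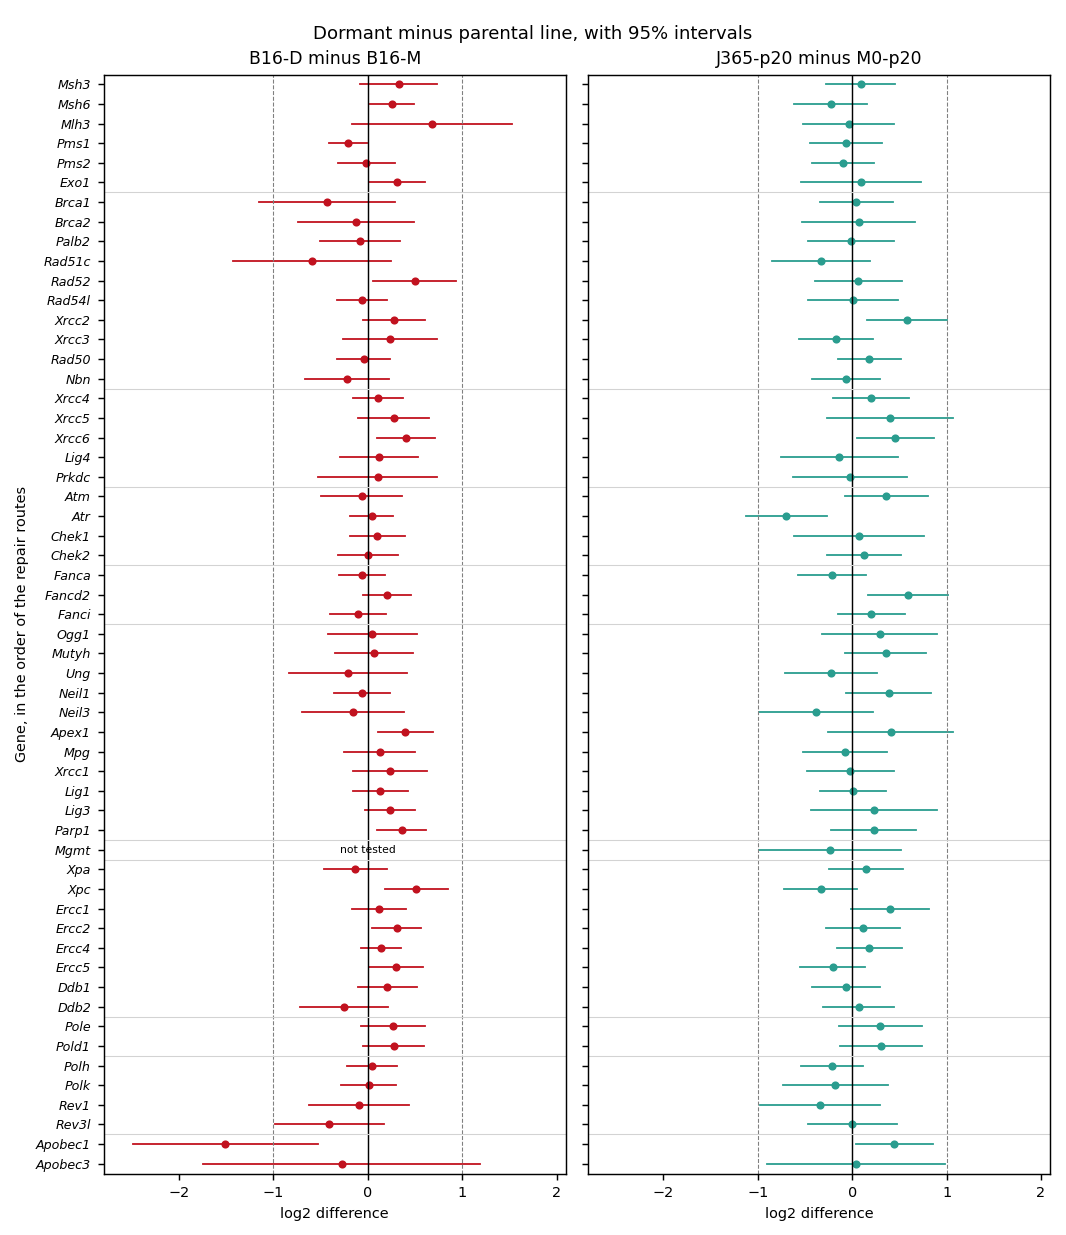
Log2 difference of the dormant minus the parental line for each gene (vertical, by repair route), for B16-D minus B16-M (left) and J365-p20 minus M0-p20 (right), with bars for 95 percent intervals and dashed lines at a 2-fold difference. Most intervals lie between the dashed lines, 50 of 55 in melanoma and 51 of 56 in leukemia, and Apobec1 in melanoma has the widest shift at -1.51 (Mlh3 in melanoma is drawn as measured, although no B16-M array was above background).

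Apobec1, the cytidine deaminase that edits apolipoprotein B mRNA and can act on DNA, had the largest difference of all members in melanoma without passing the threshold. It lay at -0.51, -1.16 and -0.61 in B16-M and at -0.87, -2.82 and -3.13 in B16-D, with -2.17 on the array left out. Replicates 1 and 3 of B16-D were far below every B16-M array, and replicate 0 lay among them, so that the lines overlapped. The log2 difference was -1.51 ± 0.45 (SE), 2.84-fold, with an adjusted p of 0.095. Without B16-D replicate 0 it was -2.21 with an adjusted p of 0.000555, and with the probes of the gene averaged it was -1.60 with an adjusted p of 0.0455. A second probe gave -1.85 ± 0.46 (adjusted p = 0.0411 over all probes) with the same replicate 0 high. The dimmest probe was above background on no B16-D array used, and no value is given for it. B16-D replicate 0 was also the highest B16-D array for Brca1 (3.08 against 2.08 and 1.66), Xrcc5 (3.55 against 2.92 and 2.74) and Lig4 (1.61 against 1.23 and 0.72). Without this array none of these genes passed between B16-D and B16-M, and Brca1 passed in B16-D-735 against B16-D (1.28, adjusted p = 0.0155, limma). Among the arrays used, B16-D replicate 0 had the lowest share of spots well above background (46 percent). Its lowest signal well above background (-4.19) was the highest such limit of these arrays. It is also the B16-D array without a date in its title, so that without it B16-D holds dated arrays and B16-M undated ones, and line and date cannot be told apart.

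The second-generation lines placed Apobec1 at the low end as well. Its signals were -1.95, -2.77, -2.5 and -2.61 in B16-D-733, -1.97, -1.95 and -1.71 in B16-D-735, and -2.29, -2.83 and -2.32 in B16-D-739. Every one of these 10 arrays was below every B16-M array. Against B16-M, a comparison added after the values were seen, Apobec1 was 3.24-fold lower in B16-D-733 (log2 -1.69 ± 0.42, adjusted p = 0.0343), while it was at -1.72 ± 0.45 in B16-D-739 (adjusted p = 0.0585) and at -1.11 ± 0.45 in B16-D-735 (adjusted p = 0.23), neither past the threshold. With B16-D-733 replicates 1 and 3 averaged as 1 array the call in B16-D-733 was lost (-1.62 ± 0.47, adjusted p = 0.09). These arrays, on the same slide, differed by an SD of 0.34 over all genes tested, against 0.44 to 0.97 for the other pairs within a melanoma line. Apobec1 was the only member called in B16-D-733 against B16-M, where 5.57 percent of all genes were (3.18 percent higher and 2.39 percent lower), and by limma 0 members were called in B16-D-739, where 3.71 percent were (2.15 percent higher and 1.55 percent lower). These comparisons share the B16-M arrays with the one above.

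**Figure D3:**
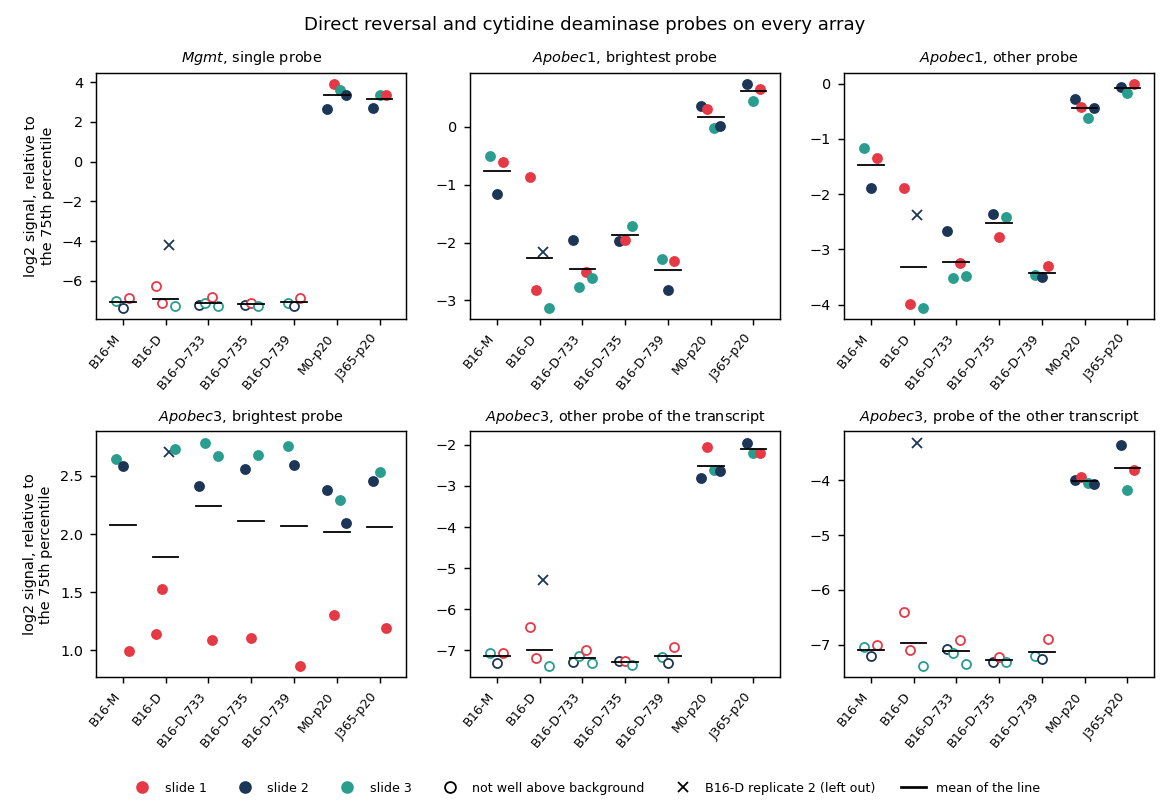
Log2 signal (vertical) of single probes of Mgmt, Apobec1 and Apobec3 on every array by line (horizontal), coloured by slide, with open circles for arrays not well above background, a cross for B16-D replicate 2 and a bar for the mean of the line. Mgmt is above background on the 7 leukemia arrays alone among those used, Apobec1 is low in all second-generation melanoma lines on both probes shown, and the brightest Apobec3 probe is low on slide 1 in every line.

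The second question was whether the second-generation lines kept the levels of B16-D. Of the 55 genes tested, 3 differed in B16-D-735, 1 higher and 2 lower, where 8 percent of all genes did, 4.07 percent higher and 3.93 percent lower. By limma, 0 differed in B16-D-733 (0.481 percent of all, 0.411 higher and 0.0699 lower) and 0 in B16-D-739 (0.309 percent of all, 0.23 higher and 0.0782 lower), with 1 gene in each at an unadjusted p under 0.05. Those genes were Xpc at -0.39 ± 0.14 in B16-D-733 and Ercc5, a nuclease of nucleotide excision repair, at -0.34 ± 0.13 in B16-D-739. The share of repair genes called in B16-D-735 was near that of all genes. In a test for any difference among the 5 melanoma lines, 3 repair genes passed (Msh6, Chek1 and Polh) where 9.98 percent of all genes did. The 3 comparisons with B16-D share its arrays.

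Msh6 was lowest in B16-D-735. Its signals were 3.79, 3.69 and 3.65 there, 4.26, 4.30 and 4.47 in B16-D (4.23 on the array left out), 4.26, 3.96 and 4.04 in B16-M, 4.5, 4.39, 4.36 and 4.25 in B16-D-733, and 4.25, 4.33 and 4.23 in B16-D-739. All 3 arrays of B16-D-735 were below all 13 other melanoma arrays used. Against B16-D, Msh6 fell 1.56-fold (log2 -0.64 ± 0.11, adjusted p = 0.0027), by 0.59 within slide 1 and by 0.82 within slide 3. Against B16-M the difference was -0.38 ± 0.11 and missed the threshold (adjusted p = 0.0679). Msh3, which recognises larger loops of unpaired bases, was at -0.56 ± 0.19 in B16-D-735 against B16-D (adjusted p = 0.0914) with no overlap of the arrays.

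Chek1, the kinase that holds the cell cycle when forks stall, was also lowest in B16-D-735. Its signals were -0.06, 0.02 and 0.03 in B16-D-735, 0.46, 0.79 and 0.79 in B16-D (0.67 on the array left out), 0.61, 0.42 and 0.69 in B16-M, 0.63, 0.75, 0.62 and 0.73 in B16-D-733, and 0.64, 0.74 and 1.10 in B16-D-739. The B16-D-735 arrays were again below all other melanoma arrays. Chek1 fell 1.60-fold against B16-D (-0.68 ± 0.13, adjusted p = 0.00788), and its second probe fell by 0.73 on the log2 scale (adjusted p = 0.0338 over all probes). Against B16-M, Chek1 fell 1.49-fold (-0.58 ± 0.14, adjusted p = 0.025). Pms1, of mismatch repair, was the other member lower in B16-D-735 than in B16-M (-0.38 ± 0.09, adjusted p = 0.0279), where 5.03 percent of all genes were called (3.07 percent higher and 1.97 percent lower).

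Rad54l, a motor protein of strand invasion in homologous recombination, went the other way. It was at 0.66, 1.01 and 0.67 in B16-D-735 and at 0.08, 0.47 and 0.37 in B16-D, with values of 0.29 to 0.55 on the remaining melanoma arrays used. It rose 1.39-fold in B16-D-735 (0.48 ± 0.12, adjusted p = 0.0319), a call that was lost without B16-D-735 replicate 1, the highest array (0.36, adjusted p = 0.116), without B16-D-735 replicate 2 (adjusted p = 0.0554), without B16-D replicate 0 (adjusted p = 0.0827) and without B16-D replicate 3 (adjusted p = 0.057). Polh, the polymerase that copies past ultraviolet lesions, was at -1.41, -1.68 and -1.42 in B16-D-735 and between -1.30 and -0.83 on all other melanoma arrays. It passed the test over the 5 lines (adjusted p = 0.0337), but not with normexp, the replicate block, averaged probes or no filter on dim probes, and among arrays left out in turn it passed only without B16-M replicate 1, B16-D replicate 0, B16-D replicate 3, B16-D-733 replicate 0 or B16-D-739 replicate 1. Its difference from B16-D, -0.35 ± 0.12, did not pass (adjusted p = 0.109) except with the slide as a block, with quantile scaling or with probes averaged (adjusted p = 0.0441, 0.0434 and 0.0407). With only the B16-D and B16-D-735 arrays in the fit, none of Msh6, Chek1 and Rad54l passed (adjusted p = 0.126, 0.14 and 0.356), and without B16-D replicate 0 Apobec1, Brca1 and Mlh3 passed as well.

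Markers of replication moved in B16-D-735 beside these genes. Of 18 replication and proliferation markers, 2 fell against B16-D, Cdc45 (-0.46 ± 0.12) and Mcm4 (-0.43 ± 0.11), with a median of -0.19 over the 18. Their summed log2 level was 8.69 to 8.93 in B16-D-735, 8.90 to 9.03 in B16-D and 8.64 to 8.93 in B16-M, and its part in the repair genes was not tested. Markers of other cells were higher in the same comparison for Dcn of fibroblasts, 1 of 4 tested (at least 7.01-fold, adjusted p = 9.65e-05), Cd14 of macrophages, 1 of 2 tested (at least 2.1-fold, adjusted p = 0.00386), and Coro1a of blood cells, 1 of 3 tested (1.53 ± 0.31). Dcn and Cd14 were above background on no B16-D array used. Of the 4 fibroblast markers tested, 3 had an unadjusted p under 0.05, with a median of 1.34 over the 4, and 3 of the 5 listed were detected in B16-D-735 against 2 in B16-D. The summed levels in B16-D-735 and B16-D were 0.12 to 0.59 against -0.98 to -0.65 for the fibroblast list, 0.11 to 1.60 against -0.02 to 1.54 for the macrophage list and 2.25 to 2.66 against 1.75 to 2.94 for the blood list. Col1a1 of fibroblasts was above background on 3 of 3 B16-D-735 arrays and on no B16-D array used (at least 1.78-fold higher). Col1a1 and Cd14 were not particular to B16-D-735, as each was above background on at least 1 B16-M array. Col1a1 was so in B16-D-733 as well, whereas Dcn was on no array of B16-M, B16-D-733 or B16-D-739. In B16-M the summed level was -0.73 to -0.42 for the fibroblast list and 0.47 to 1.71 for the macrophage list. The listed markers on no B16-D-735 array were Lum and Pdgfra of fibroblasts, Adgre1 and Mrc1 of macrophages, and Ptprc, Spi1, Laptm5, Vav1 and Lcp2 of blood cells. All of these but Pdgfra were on no B16-D array used either. The part of the markers of other cells in the repair genes was not tested.

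**Figure D4:**
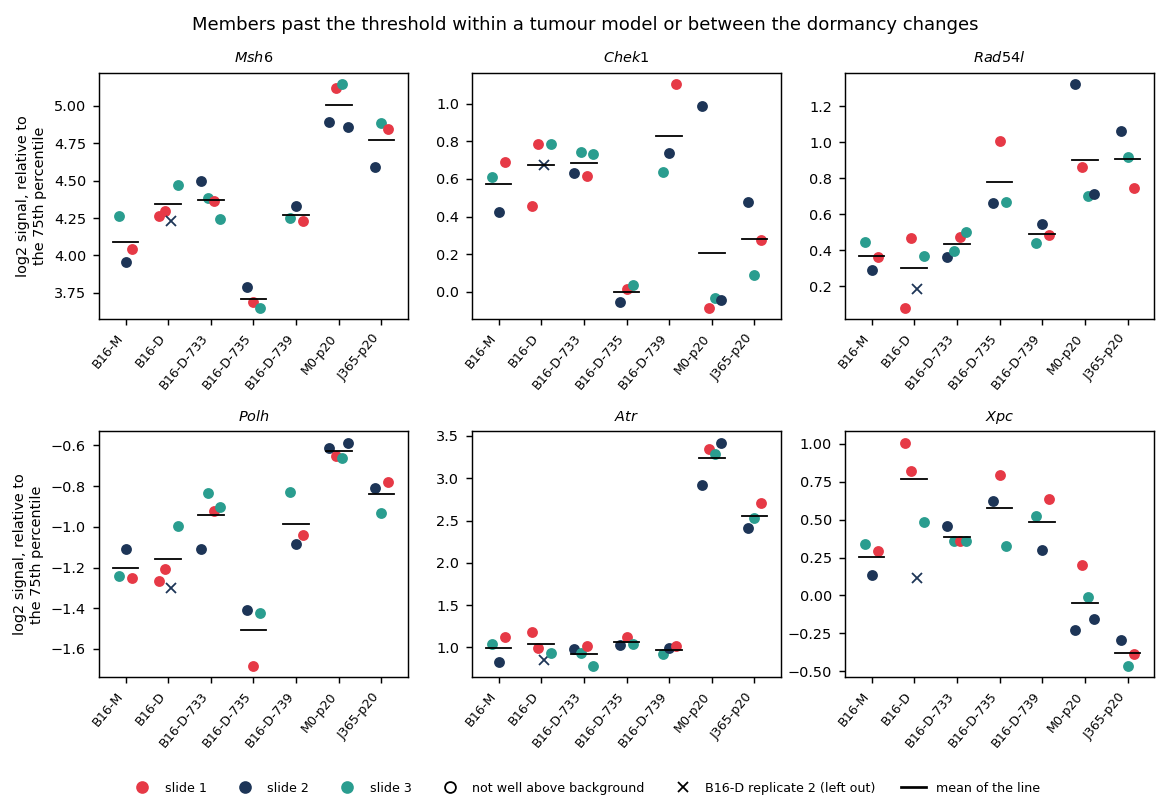
Log2 signal (vertical) on every array by line (horizontal) for the 6 genes called within the melanoma lines or between the dormancy changes, coloured by slide, with a cross for B16-D replicate 2 and a bar for the mean of the line. Msh6, Chek1 and Polh are lowest in B16-D-735, Rad54l is highest there among melanoma lines, Atr is lower in J365-p20 than in M0-p20, and Xpc is high in B16-D.

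In leukemia, the dormant line J365-p20 was compared with M0-p20. No repair gene was called: 0 of 56 had an adjusted p under 0.05 (limma), where 1.07 percent of 22967 genes did (0.488 percent higher and 0.579 percent lower), and 5 of the 56 had an unadjusted p under 0.05, as had 1582 of all. The differences had a median of 0.05 against -0.02 over all genes, and 53 of 56 were under 0.5 in size. The interval excluded a 2-fold difference for 51 genes and reached it for Xrcc2, Xrcc5, Atr, Fancd2 and Apex1. By limma 0 of 17 replication markers and 0 of 10 p53 target genes passed, with 1 of each list at an unadjusted p under 0.05.

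Atr had the largest difference in leukemia. Its signals were 2.92, 3.35, 3.29 and 3.42 in M0-p20 and 2.41, 2.53 and 2.71 in J365-p20, so that the lines did not overlap. The difference was -0.70 ± 0.18 (adjusted p = 0.276), and it was -0.64, -0.76 and -0.76 within slides 1, 2 and 3. Fancd2, the clamp that is marked with ubiquitin in crosslink repair, was at -2.67, -2.22, -2.62 and -2.43 in M0-p20 and at -1.71, -1.92 and -2.06 in J365-p20, a difference of 0.59 ± 0.18 (adjusted p = 0.431) with no overlap. Xrcc2, of homologous recombination, lay at -1.73, -1.48, -1.83 and -1.91 against -0.92, -1.30 and -1.25, again apart (0.58 ± 0.18, adjusted p = 0.437).

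The remaining extremes of the routes in J365-p20 against M0-p20 were smaller than 0.5 in size, and none passed the threshold. They were Exo1 (0.09 ± 0.27) and Msh6 (-0.23 ± 0.17) in mismatch repair, Rad51c (-0.33 ± 0.22) in homologous recombination, and Xrcc6 (0.46 ± 0.17) and Lig4 (-0.13 ± 0.26) in end joining. Atm was at 0.36 ± 0.19 and Fanca at -0.22 ± 0.15. In base excision repair they were Apex1 (0.41 ± 0.28) and Neil3 (-0.38 ± 0.26), and in nucleotide excision repair Ercc1 (0.40 ± 0.18) and Xpc (-0.34 ± 0.17). Among the polymerases, Pold1 was at 0.31 ± 0.19, Pole at 0.30 ± 0.19, Rev3l at 0.00 ± 0.20 and Rev1 at -0.34 ± 0.27. Apobec1 was at 0.45 ± 0.18 with all J365-p20 arrays above all M0-p20 arrays, Apobec3 at 0.04 ± 0.40 and Mgmt at -0.24 ± 0.32. M0-p20 replicate 0 and J365-p20 replicate 0, both on slide 2, were the highest arrays of their lines for Apex1, Exo1, Lig3, Xrcc5, Ogg1 and Chek1, and over the 56 genes their deviations from the means of their lines had a correlation of 0.73, a description over genes of 2 arrays that share a slide. The same held for M0-p20 replicate 2 with J365-p20 replicate 1 on slide 3 (0.78) and, less so, for M0-p20 replicate 1 with J365-p20 replicate 3 on slide 1 (0.53), while M0-p20 replicate 3, also on slide 2, had -0.49 with J365-p20 replicate 0.

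Whether dormancy changed a gene differently in the 2 models was tested by the difference between the dormancy changes, leukemia minus melanoma. It passed for 2 of 56 repair genes, both lower, where 2.28 percent of all 26757 genes did (0.938 percent higher and 1.34 percent lower). Atr was at -0.74 ± 0.18 (adjusted p = 0.0385), with a change of -0.70 in leukemia and of 0.04 in melanoma, where its signals were 1.04, 0.83 and 1.12 in B16-M and 1.18, 1.00 and 0.93 in B16-D. Xpc, the damage sensor of nucleotide excision repair, was at -0.85 ± 0.21 (adjusted p = 0.0358). It lay at 0.34, 0.14 and 0.29 in B16-M and at 1.01, 0.82 and 0.48 in B16-D, with 0.12 on the array left out. In leukemia it lay at -0.23, 0.20, -0.01 and -0.15 in M0-p20 and at -0.29, -0.47 and -0.39 in J365-p20. The arrays of parental and dormant lines were apart in opposite directions in the models, and the array left out would have lain below all B16-M arrays. With that array both calls were lost (Atr -0.69, adjusted p = 0.0556, and Xpc -0.69, adjusted p = 0.243). The other Xpc probe gave -0.44 and did not pass (adjusted p = 0.438 over all probes). Apobec1 was at 1.95 ± 0.54 and did not pass (adjusted p = 0.0709), though it did with the replicate block (1.86, adjusted p = 0.0431), with probes averaged (1.93, adjusted p = 0.0395) and without B16-D replicate 0 (2.66, adjusted p = 4.13e-05). Of 13 arrays left out in turn, 9 ended the Atr call and 10 the Xpc call, with adjusted p up to 0.128 and 0.108, both without B16-M replicate 1. The arrays that did not end it were B16-M replicate 2, B16-D replicate 3, M0-p20 replicate 0 and J365-p20 replicate 3 for Atr, and B16-D replicate 3, M0-p20 replicate 0 and M0-p20 replicate 3 for Xpc.

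The largest differences in repair transcripts were between the tumour types. Between the parental lines M0-p20 and B16-M, 40 of 56 repair genes were called, 17 higher and 23 lower in leukemia, where 56.2 percent of all 26757 genes were called, 31 percent higher and 25.2 percent lower. The median over the repair genes was -0.27 against 0.19 over all genes. Of 18 replication markers 2 were higher and 8 lower in M0-p20 (summed level 8.59 to 8.85 against 8.64 to 8.93), and 8 of 10 p53 target genes were higher, and their part in the repair genes was not tested. Cell type, strain and line cannot be told apart in this comparison, and it shares its arrays with both dormancy comparisons.

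In mismatch repair, 3 of 6 genes were higher in M0-p20 and 2 lower. Mlh3 was at least 4.5-fold higher (measured means of -2.73 and -5.37, adjusted p = 1.05e-06), Pms2 2.30-fold (1.20 ± 0.12, adjusted p = 5.96e-08) and Msh6 1.89-fold (0.92 ± 0.12, adjusted p = 1.23e-06), while Exo1, the nuclease that removes the faulty strand, was lower (-0.59 ± 0.19, adjusted p = 0.0141). Pms1 was lower on its brightest probe (-0.37 ± 0.10, adjusted p = 0.00522) and higher on the other (0.49 ± 0.16, adjusted p = 0.0136 over all probes), so that it has no settled direction.

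In the repair of double-strand breaks, 4 of the 5 end joining members were lower in M0-p20 and 1 higher, whereas 4 of 6 other genes listed for this route were higher and 1 lower. Xrcc5, which encodes Ku80, the partner of Ku70 at broken ends, lay between 2.51 and 3.55 on the 16 melanoma arrays and between -0.34 and 0.87 on the 7 leukemia arrays. The gap between the models was wider than the range within either. Xrcc5 was 6.28-fold lower in M0-p20 than in B16-M (-2.65 ± 0.22, adjusted p = 2.93e-09). Lig4, the ligase of end joining, was 4.40-fold lower (-2.14 ± 0.21, adjusted p = 5.66e-08) with a like value on its other probe (-2.03), and Xrcc6 (-0.52 ± 0.14) and Xrcc4 (-0.33 ± 0.13) were lower by less. Prkdc, the kinase that Ku recruits, was 1.71-fold higher (0.78 ± 0.27, adjusted p = 0.0211). In homologous recombination 5 of 10 genes were lower and 3 higher. Brca1 had the largest difference there, with signals of 1.66 to 3.66 on the melanoma arrays and 0.12 to 0.51 on the leukemia arrays (-2.41 ± 0.27, adjusted p = 3.41e-07). Its other probe was only at -0.30 ± 0.17 (adjusted p = 0.143 over all probes), and the size of the Brca1 difference therefore depends on the probe. Xrcc2 (-0.93 ± 0.15), Xrcc3 (-0.62 ± 0.20), Rad50 (-0.55 ± 0.12) and Nbn (-0.45 ± 0.18) were also lower, and Rad52 (0.60 ± 0.19), Rad54l (0.53 ± 0.15) and Palb2 (0.51 ± 0.19) higher.

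Of the damage kinases, Atr stood out. Its signals were 0.78 to 1.18 on the 16 melanoma arrays and 2.41 to 3.42 on the 7 leukemia arrays, and it was 4.75-fold higher in M0-p20 than in B16-M (2.25 ± 0.13, adjusted p = 7.7e-12). Both leukemia lines were above all melanoma arrays, although J365-p20 was below M0-p20. Chek2, which Atm activates, was 2.23-fold lower (-1.16 ± 0.14, adjusted p = 7.52e-07), Atm was lower (-0.48 ± 0.18, adjusted p = 0.0344), and Chek1 did not pass on its brightest probe (-0.37 ± 0.21, adjusted p = 0.139). All 3 Fanconi genes were lower: Fancd2 by 1.42 on the log2 scale (2.67-fold, adjusted p = 1.59e-08), Fanca by 0.94 and Fanci by 0.86. One Fanca probe ran the other way (1.61 ± 0.20, adjusted p = 9.59e-07 over all probes) and another lower (-1.58 ± 0.41), so that the Fanca direction depends on the probe. Of 10 other Fanconi genes tested, 6 were higher and 1 lower.

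Base excision repair was split among its glycosylases, the enzymes that recognise the damaged base. Ogg1, which removes oxidised guanine, was 3.15-fold lower in M0-p20 (-1.66 ± 0.23, adjusted p = 3.93e-06), while Mutyh, which removes adenine paired with that base, was 1.97-fold higher (0.98 ± 0.18, adjusted p = 9.95e-05), Neil1 2.70-fold (1.43 ± 0.15, adjusted p = 9.06e-08) and Neil3 2.44-fold (1.29 ± 0.25, adjusted p = 0.000173). Both leukemia lines lay beyond all melanoma arrays for each of these 4. The ligase Lig3 (-1.21 ± 0.20), the nick sensor Parp1 (-0.48 ± 0.14) and the replicative ligase Lig1 (-0.45 ± 0.12) were lower, and Ung, Apex1, Mpg and Xrcc1 did not pass. With the slide as a block in limma, Ung (-0.59, adjusted p = 0.00182) and Xrcc1 (-0.33, adjusted p = 0.00819) passed as lower. In nucleotide excision repair the sensor Ddb2 (1.47 ± 0.19, 2.76-fold, adjusted p = 1.41e-06) and the scaffold Xpa (1.03 ± 0.14, 2.04-fold, adjusted p = 5.43e-06) were higher. Ercc1 (-1.25 ± 0.14, adjusted p = 1.78e-07), the nuclease gene Ercc5 (-0.45 ± 0.12) and the helicase gene Ercc2 (-0.29 ± 0.12, adjusted p = 0.0492) were lower.

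Several of the smaller differences between the parental lines were lost when 1 array was left out. These were Ercc2, Exo1, Nbn, Prkdc, Rad52 and Xrcc4 without B16-M replicate 0, Apobec1, Atm, Ercc2, Nbn and Palb2 without B16-M replicate 1, and Apobec1, Atm, Ercc2, Palb2, Rev1, Xrcc3 and Xrcc4 without B16-M replicate 2. They were Apobec1, Nbn, Palb2, Rev1 and Xrcc4 without M0-p20 replicate 0, Apobec1, Atm, Ercc2 and Nbn without M0-p20 replicate 1, Atm, Ercc2 and Rev1 without M0-p20 replicate 2, and Apobec1, Atm, Ercc2, Exo1, Nbn, Palb2, Prkdc and Xrcc4 without M0-p20 replicate 3.

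**Figure D5:**
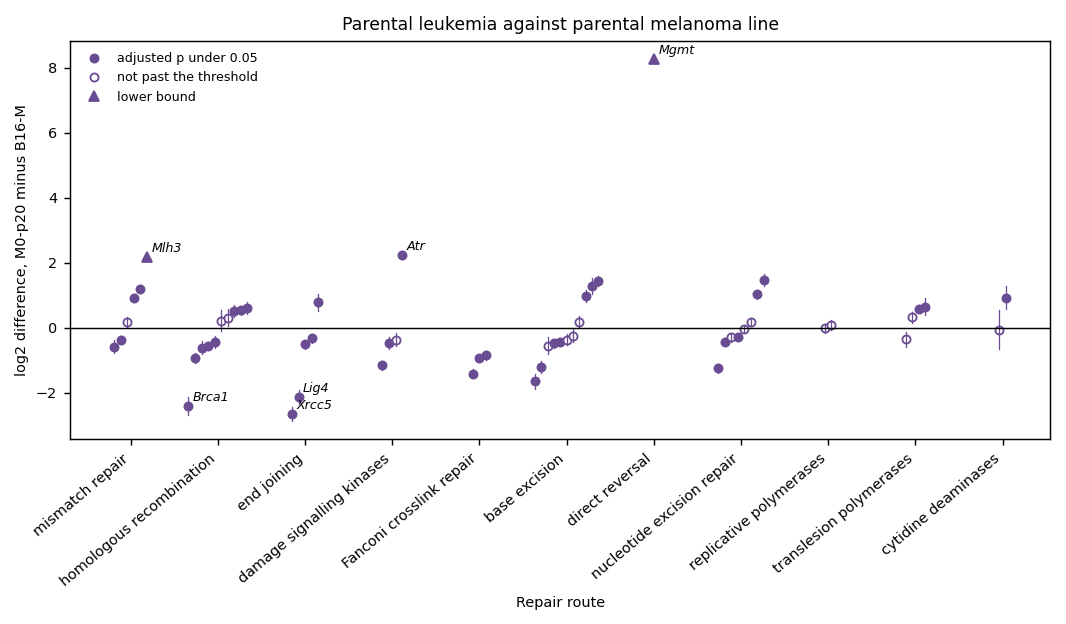
Log2 difference of M0-p20 minus B16-M (vertical) for each gene, by repair route (horizontal), with filled circles for an adjusted p under 0.05, open circles for genes not past it, triangles for lower bounds and bars for the standard error. Fancd2, Fanci and 4 of 5 end joining genes lie below 0, and Mgmt stands far above all others at a lower bound of 8.27.

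Of 2 replicative and 4 translesion polymerase members 2 were called, while 3 of 6 other genes listed with the former and 4 of 4 listed with the latter were. Neither Pole (0.09 ± 0.16) nor Pold1 (-0.03 ± 0.15) differed past the threshold between the parental lines, and of the translesion polymerases Polh (0.57 ± 0.11, adjusted p = 0.000162) and Rev1 (0.65 ± 0.25, adjusted p = 0.0338) were higher in leukemia while Polk and Rev3l did not pass. Taking all lines of each tumour type, the 7 leukemia arrays were fully above or below the 16 melanoma arrays for 25 of 56 repair genes (44.6 percent), 11 above and 14 below, where 36.5 percent of all genes were, 19 percent above and 17.5 percent below. These were 3 of 3 Fanconi genes (Fanca on its brightest probe) and 6 of 11 of base excision repair, but 0 of the 6 polymerase genes.

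Mgmt was present in one tumour type and not in the other. Its single probe was not well above background on any of the 16 melanoma arrays used (-7.36 to -6.26), although the array left out gave -4.17 and was above background. It lay at 2.67, 3.88, 3.60 and 3.33 in M0-p20 and at 2.68, 3.36 and 3.36 in J365-p20. All leukemia arrays were far above all melanoma arrays. Mgmt was at least 309.5-fold higher in M0-p20 than in B16-M (measured means of 3.37 and -7.08, adjusted p = 3.56e-17), and the measured difference was 10.75, 10.36 and 10.61 within slides 1, 2 and 3.

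Apobec1 was 1.90-fold higher in M0-p20 than in B16-M (0.93 ± 0.37, adjusted p = 0.039), with M0-p20 at 0.35, 0.31, -0.02 and 0.00 and J365-p20 at 0.73, 0.44 and 0.66. A second Apobec1 probe was higher too (1.02 ± 0.37, adjusted p = 0.0217 over all probes), and the dimmest, above background on 5 of 16 melanoma arrays, did not pass (-0.27). For Apobec3, a restriction factor against retroviruses, the brightest probe followed the slide. It was between 0.86 and 1.53 on all 8 arrays of slide 1 and between 2.1 and 2.79 on the 15 arrays of slides 2 and 3, in every line. This slide range of 1.43 was the widest of all members, before Rad51c at 0.76 and a median of 0.19. Its difference between M0-p20 and B16-M was -0.06 ± 0.59, and 0.31, -0.35 and -0.36 within slides 1, 2 and 3. The other probes of Apobec3 were above background on all 7 leukemia arrays and on none of the 16 melanoma arrays used. One of them, on the same transcript, lay between -2.8 and -1.94 in leukemia and was at least 5.19-fold higher in M0-p20 than in B16-M, and the probe of the other transcript lay between -4.17 and -3.37 and was at least 1.85-fold higher. The probes of Apobec3 thus gave different answers, and the gene is reported without a direction.

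Other genes of the same routes gave counts beside these members. Of 84 listed, 80 were tested in melanoma, and 2 rose in B16-D against B16-M, the nuclease gene Mre11a (0.50 ± 0.12, adjusted p = 0.0434) and the alkyl-lesion dioxygenase gene Alkbh2 (0.49 ± 0.12, adjusted p = 0.0392). In that comparison 3.6 percent of all genes were called, 2 percent higher and 1.6 percent lower. In B16-D-735 against B16-D, 8 of 80 were called, 2 higher and 6 lower, where 8 percent of all genes were, 4.07 percent higher and 3.93 percent lower. Among these 8 repair genes were changes in the glycosylase genes Nthl1 (-0.90 ± 0.16) and Neil2 (0.66 ± 0.12), in H2ax (-0.66 ± 0.18), the histone marked at breaks, and in Fancl (0.49 ± 0.12), the ubiquitin ligase of the Fanconi route. All 12 genes listed under damage signalling had a value below 0 in B16-D-735, and 3 of them passed (H2ax, Rad1 and Rnf8). The share of all genes with a value below 0 there is not given here. By limma, 0 of 80 were called in B16-D-733 (0 at an unadjusted p under 0.05) and in B16-D-739 (3 at an unadjusted p under 0.05), 0 of 80 in J365-p20 (4 at an unadjusted p under 0.05), and 1 of 82 for the difference between the dormancy changes, Brip1, a helicase partner of Brca1 (0.94 ± 0.18, adjusted p = 0.00448). Of all genes 0.481, 0.309 and 1.07 percent were called in these 3 lines, and 2.28 percent for the difference between the dormancy changes. Between M0-p20 and B16-M, 58 of 82 were called, 43 higher and 15 lower, where 56.2 percent of all genes were, 31 percent higher and 25.2 percent lower. Neil2 was not above background on its brightest probe in leukemia, where another probe of it was, and was at least 44.9-fold lower on the brightest, Pold4 was 9.76-fold higher and Alkbh2 9.04-fold lower, and Msh5 was 4.66-fold higher.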

How the data were processed

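Total RNA of 24 samples was hybridised to 1-colour Agilent mouse 8x60k arrays on 3 slides. The deposited files hold Cy3 intensity per spot, background-corrected by the authors' scanner software, Agilent Feature Extraction 10.7.3.1. Control spots and 2468 outlier spots were left out, the processed signal was taken to log2, and the 75th percentile of each array was subtracted. The brightest probe stood for a gene. Genes well above background on at least 3 arrays of a fit were tested in limma 3.58.1 (R 4.3.3) by lmFit and eBayes, with Benjamini-Hochberg adjustment over all genes and a threshold of 0.05. The 5 melanoma lines shared 1 fit (16 arrays), the leukemia lines another (7), and comparisons between tumour types a fit over all 23. Groups came from the sample titles. B16-D replicate 2 was left out. The script was tested on simulated data.

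The genes and the lists of other genes were chosen with earlier results of these data known. Named were all genes called in a comparison, the highest and lowest of each route in both dormancy comparisons, and genes not detected in a line. Alternatives were normexp (offset 50), quantile scaling, other probe and background filters, the slide or replicate as a block, single lines and each array left out. No spot was saturated. Promoter windows of 10 genes (Exo1, Xrcc2, Rad50, Nbn, Prkdc, Fancd2, Xpc, Ddb2, Pole and Rev3l) were not analysed here. Some of the other repair genes counted are not reported here by name.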

Additional observations from a re-analysis of the deposited data

Results flagged for a closer look

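Among the lines with 4 arrays used, 98 sets of values were looked at for a single array far from its neighbours, and chance alone singles out about 1 set in 20. The gap of that array to its nearest neighbour, as a share of the range of the line, was 0.952 for Chek1 in M0-p20 replicate 0 (0.99 against -0.09 to -0.04), 0.983 for Ercc2 in B16-D-733 replicate 0 (1.91 against 2.1), 0.862 for Rev3l in B16-D-733 replicate 2 (1.60 against 1.09 to 1.16), 0.91 for Ung in B16-D-733 replicate 2 (5.27 against 5.79 to 5.84) and 0.996 for Xpc in B16-D-733 replicate 0 (0.46 against 0.36).

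The dormancy change differed between leukemia and melanoma by the interaction test in limma for Atr (-0.736, adjusted p = 0.0385) and for Xpc (-0.851, adjusted p = 0.0358).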

How the results depend on the processing

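The B16-D and B16-M comparison gave 1 repair gene with the probes of a gene averaged (Apobec1) and 1 with the replicate block (Rad52, 0.70, adjusted p = 0.0415), against 0. B16-D-735 against B16-D gave 5 of the repair genes with quantile scaling (Neil1 and Polh added, both lower), 5 with probes averaged (Brca1 higher and Polh lower added) and 0 with only the lines compared in the fit, against 3. Any difference among the melanoma lines gave 1 with normexp, against 3. The difference between the dormancy changes gave 1 with normexp, 0 with B16-D replicate 2, 0 without a filter on dim probes and 0 with only the lines compared, against 2. The other settings kept these counts within 1.5 times. Pms1 between M0-p20 and B16-M turned to 0.061 with probes averaged. With the slide as a block, Ung, Xrcc1 and Xpc were gained between these lines, all lower in M0-p20. Other calls between these lines were lost as well. These were Ercc2 and Nbn with normexp, Ercc2 with quantile scaling, and Ercc2 and Xrcc4 with the replicate block. They were Apobec1, Fanca, Prkdc and Rad52 with probes averaged, and Apobec1, Atm, Ercc2, Nbn, Rev1 and Xrcc4 without a filter on dim probes. With only the lines compared they were Atm, Ercc2, Exo1, Nbn, Parp1, Pms1, Rev1, Xrcc4 and Xrcc6.

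With 1 array left out at a time, the counts ran from 0 to 2 for B16-D against B16-M, 2 to 5 for B16-D-735 against B16-D, 2 to 5 for any difference and 0 to 2 for the difference between the dormancy changes, from 32 to 38 for M0-p20 against B16-M, and stayed at 0 for B16-D-733, B16-D-739 and J365-p20.

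Whether replicate numbers pair the arrays was not settled. Over all genes tested, same-numbered arrays had correlations of deviations of -0.31 to 0.67 within a model, and of -0.54 to -0.23 between M0-p20 and B16-M. Those numbered 0 were above 0 in all 5 comparisons within a model (0.25 to 0.51). With the replicate block, B16-D-735 against B16-D gave 4, and the difference between the dormancy changes gave 2, with Atr lost and Apobec1 gained. With probes averaged, Xpc was lost there and Apobec1 gained.

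No scaling moved the median of all genes by over 0.1. Precision was limited by 3 or 4 arrays per line and, for Mlh3 in melanoma, by signals near background. The p-values cover the spread between arrays of one line and not between animals or derivations of a line. Statements that arrays of lines within a tumour model did not overlap are descriptions, and the share over all genes is not given here.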
